A study of Mus musculus with 8 samples.

Results

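The genes described here encode the proteins of the mitochondrial ribosome. They were chosen by name: a probe set belonged to them when the platform annotation gave it a single gene symbol that starts with Mrpl or Mrps and goes on with a digit. The pattern found 76 genes, read by 156 of the 45101 probe sets, among 18193 genes with a probe set of their own. Mrpl30 and Mrpl53 also matched the pattern but stood only on probe sets shared with another gene and were left out. Each gene was represented by its brightest probe set, by the mean of log2 values over the 8 arrays, and no comparison between groups entered that choice.

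The data are Affymetrix whole-genome arrays of 2 mouse stem cell types, with 2 arrays in each of 4 groups. Embryonic stem cells (ESC) were clones with Zfx either flanked by loxP sites (Zfx-flox) or deleted (Zfx-null), and they grew on gelatin without feeder cells in 15% Knockout SR with LIF. The hematopoietic samples (HSC) were sorted from marrow by the gate Lin- Sca-1+ c-Kit+, which holds multipotent progenitors besides stem cells. The marrow was pooled over 4 to 6 Zfxflox/y littermates, 4 days past the final pI·C injection, with no Cre in the controls (Zfx-flox) and with the interferon-inducible Mx1-Cre in the conditional knockouts (Zfx-cko). Between the HSC groups, Cre was therefore present in Zfx-cko alone, and all HSC donors had received pI·C. ESC RNA was amplified in 1 round and HSC RNA in 2. Since samples were hybridised in duplicate, the arrays of a group may share an RNA sample, so the p-values measure the spread between these arrays, which may be technical.

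The mitochondrial ribosome translates the few proteins that mitochondrial DNA encodes, all of them parts of the oxidative phosphorylation complexes. Its small subunit (Mrps proteins) reads the messenger RNA and its large subunit (Mrpl proteins) forms the peptide bonds. The ribosomal RNA is mitochondrial, whereas every protein of the ribosome is encoded in the nucleus, made in the cytosol and imported. Many of its proteins have a bacterial counterpart, and the others belong to a shell that bacterial ribosomes lack. Hematopoietic stem cells are known for a low reliance on oxidative phosphorylation, which rises as they leave quiescence. NRF1, the ETS factor GABP and YY1 are known activators of nuclear genes for mitochondrial proteins, and Zfx is a zinc finger transcription factor encoded on the X chromosome.

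By subunit, 49 of the 76 genes encode large subunit proteins, 26 small subunit proteins, and Mrps36 a protein that is now known as a subunit of the alpha-ketoglutarate dehydrogenase complex. Mrps30 and Mrps18a carry small subunit names but belong to the large subunit. Of the 75 ribosomal genes, 45 have a bacterial homolog and 30 are mitochondria-specific. They lie on 17 chromosomes, with 11 on chromosome 11 and 8 on chromosome 17.

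Promoter sequence came from RefSeq (GRCm38.p6), which held a window from 250 bases before to 50 bases after the start for 67 of the 76 genes. The motifs searched on both strands were an NRF1 core (GCATGCGC), an ETS site of the kind GABP binds (CCGGAAG), a YY1 site (AAGATGGC) and a Zfx core (AGGCCT). The stretches below are the 100 bases before the start of 5 genes that were among the 10 with the largest HSC change and that held a match there, and of Mrpl43, the only gene that was higher in HSC Zfx-cko past the threshold. Capitals mark the matches, on the given or the opposite strand.
Mrpl17 (chr7:105811088-105811187, minus strand): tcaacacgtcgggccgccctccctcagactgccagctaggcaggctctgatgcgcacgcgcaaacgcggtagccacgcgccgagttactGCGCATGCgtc
Mrpl22 (chr11:58171564-58171663, plus strand): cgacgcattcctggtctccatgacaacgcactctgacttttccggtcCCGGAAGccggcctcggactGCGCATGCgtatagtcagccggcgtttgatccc
Mrpl33 (chr5:31613851-31613950, plus strand): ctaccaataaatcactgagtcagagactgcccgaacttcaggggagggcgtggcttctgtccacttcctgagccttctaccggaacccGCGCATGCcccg
Mrpl52 (chr14:54426809-54426908, plus strand): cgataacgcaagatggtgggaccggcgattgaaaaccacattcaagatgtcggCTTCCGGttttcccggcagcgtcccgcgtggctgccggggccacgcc
Mrps26 (chr2:130563657-130563756, plus strand): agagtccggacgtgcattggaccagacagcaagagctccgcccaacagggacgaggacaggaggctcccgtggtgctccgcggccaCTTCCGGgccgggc
Mrpl43 (chr19:45006443-45006542, minus strand): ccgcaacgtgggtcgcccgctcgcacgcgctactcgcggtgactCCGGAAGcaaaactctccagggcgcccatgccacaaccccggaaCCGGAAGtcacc
In these 100 bases Mrpl22 held an NRF1 core and an ETS site, and Mrpl17 and Mrpl33 an NRF1 core. Mrpl52 and Mrps26 held a single ETS site there, and Mrpl43 a pair of ETS sites. Mrpl17 and Mrpl33 also held an ETS site elsewhere in the window.

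In the whole window, the ETS site occurred in 25 of the 67 genes (37.3%) against 9.93% of all 27025 genes with a window. The YY1 site occurred in 12 (17.9%) against 3.19%, and the NRF1 core in 8 (11.9%) against 3.05%. The Zfx core occurred in 2 (2.99%), Mrpl40 and Mrpl44, against 11.6% of all genes. Of the YY1 matches, 8 of 12 lay wholly after the start, while 13 of 14 NRF1 matches lay before it. The windows of these genes were also richer in G and C than those of all genes, with a median of 58.0% against 52.8% and a median observed over expected CpG ratio of 0.818 against 0.390, and the shares were not matched for this.

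Start sites that lie back to back with that of another gene were frequent among them. Within 1000 bases, a neighbour on the opposite strand faced away from 25 of the 67 genes (37.3%), against 3311 of all 27025 genes (12.3%). One such pair joins both subunits: the starts of Mrpl46 and Mrps11 lie 42 bases apart. Others are Mrpl43 with Twnk, the mitochondrial DNA helicase, Mrps12 with Sars2, a mitochondrial seryl-tRNA synthetase, and Mrpl18 with Tcp1, a subunit of the cytosolic chaperonin.

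Every array had the same trimmed mean intensity, 250, with 69.4% to 78.9% of all probe sets above the pseudocount of 14.2. The arrays of a group correlated at 0.980 to 0.987 over all probe sets. Of the 7 probe sets annotated to Zfx, 1422249_s_at, which is shared with the pseudogene Zfa-ps, read 285 and 298 in ESC Zfx-flox and 1.32 and 0.878 in ESC Zfx-null. In HSC that probe set read at most 7.22 on every array and so checked nothing. In ESC the 4 annotated to Zfx alone, and the shared 1428047_s_at, read higher on both Zfx-null arrays, 1425972_a_at by 0.79 on the log2 scale. In HSC 1425972_a_at was higher in Zfx-cko (0.72), as was the dim 1449512_a_at, at 4.32 and 9.95 against 24.9 and 18.9. By contrast 1419565_a_at was lower there, at 109 and 162 against 97.4 and 84.7, and 1428046_a_at overlapped between the groups. Their position relative to the deleted part is not stated in the labels. The 5' to 3' log2 ratio of the Gapdh controls was 0.38 to 0.44 on the ESC arrays and -4.68 to -4.18 on the HSC arrays, with both Zfx-cko arrays below both Zfx-flox arrays.

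All 76 genes were bright enough to be tested in both cell types. Changes are differences of group means on the scale log2(intensity + 14.2), with p-values from limma moderated over all probe sets and adjusted by Benjamini and Hochberg over all genes tested, and a threshold of 0.05. The filter kept a gene when its mean over the 4 arrays of a cell type reached the 40th percentile of all probe sets. The median standard error was 0.08 for these genes, against 0.14 over all genes tested in either cell type. Genes as bright as these therefore passed more often than all genes did. Between the lowest and the highest mean level of the 76, 19.5% of 6801 other genes fell in ESC and 20.6% rose. In HSC 25.5% of 8592 such genes fell and 28% rose. Since RNA was taken from cell populations, fewer cells with a high level and less RNA in each cell cannot be told apart.

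In HSC, most mitochondrial ribosomal protein genes were lower in the Zfx-cko arrays. Of the 76, 57 fell past the threshold (75%) and 1 rose, where 19.8% of all 12533 genes tested fell and 22.6% rose. The median log2 change of the 76 was -0.49, against 0.03 over all genes tested. In linear terms the median gene stood at 71.5% of its Zfx-flox mean, with a range of 40.7% to 120.5%. In 65 of the 76 both Zfx-cko arrays lay below both Zfx-flox arrays, as they did for 33.4% of all genes. The summed intensity of the 76 genes was 125091 and 127911 with floxed Zfx against 91112 and 94935 in Zfx-cko cells.

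**Figure D1:**
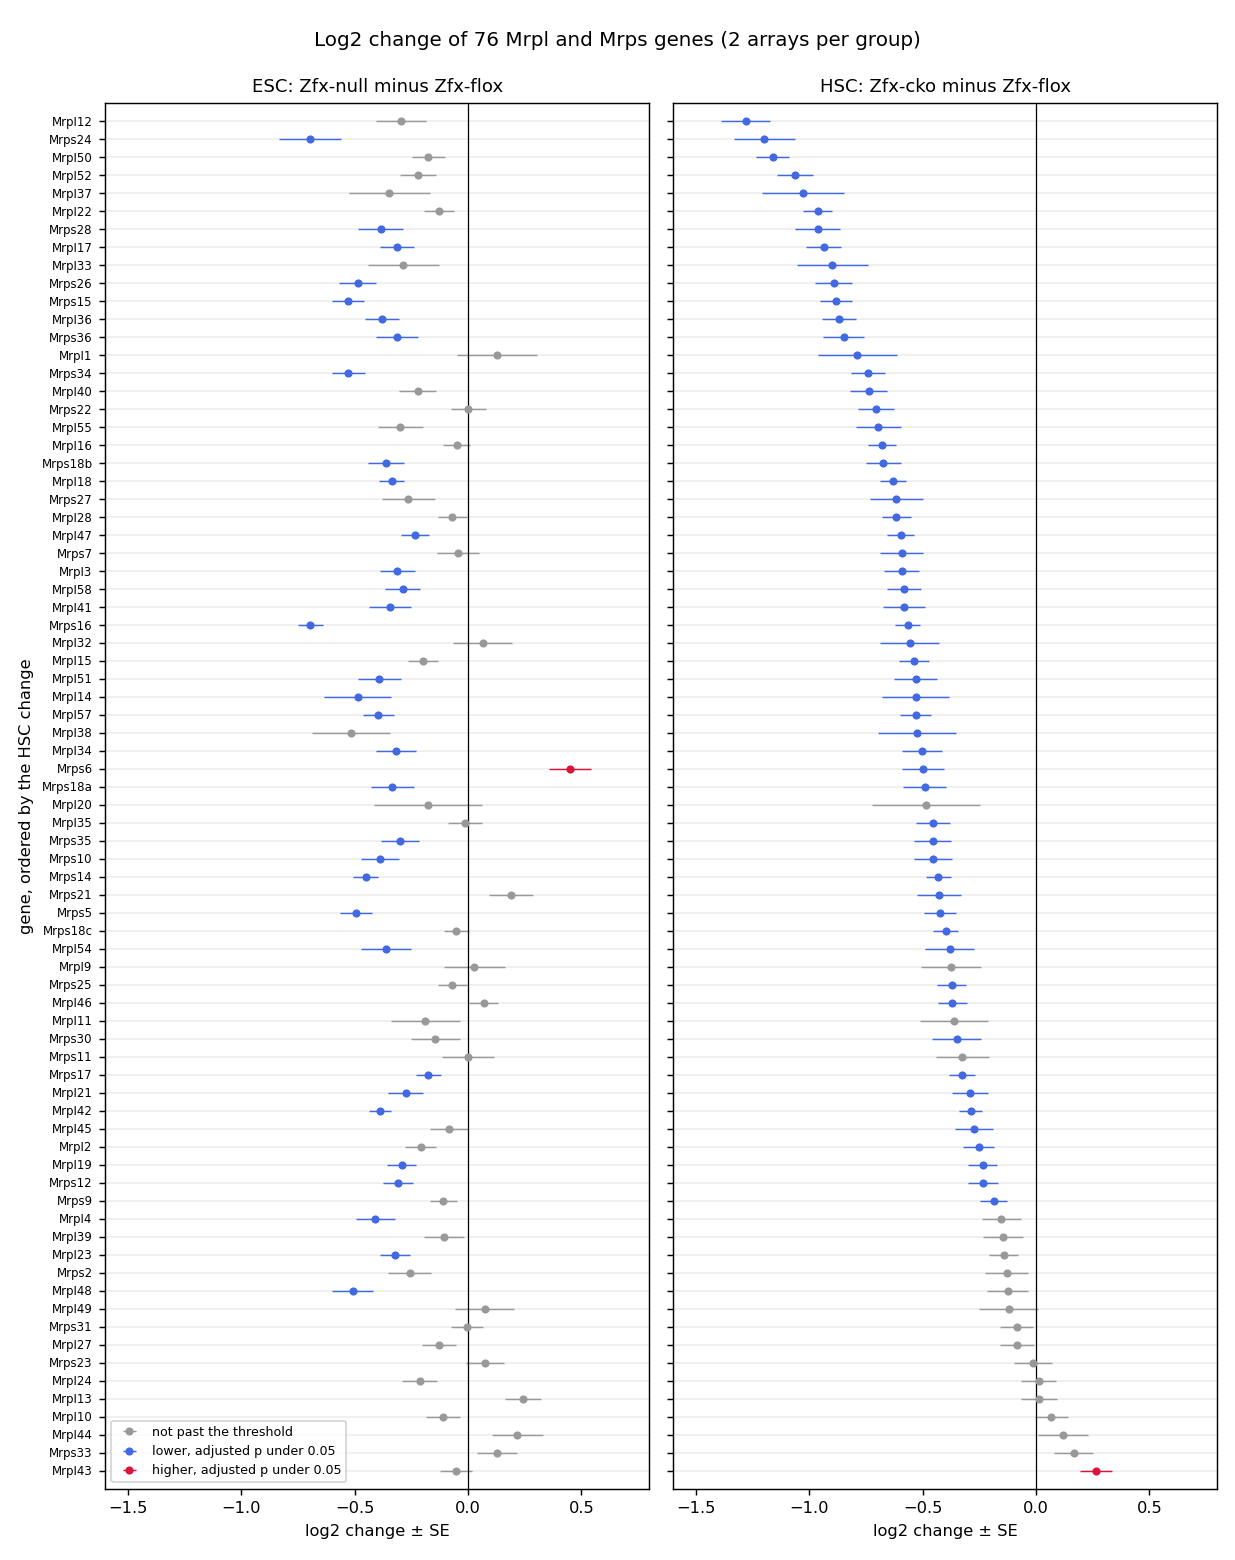
Log2 change ± SE of each of the 76 genes in ESC (left) and HSC (right), 1 line per gene in the order of the HSC change, with blue for lower and red for higher past an adjusted p of 0.05 and grey for the rest. In HSC 57 genes are blue and only Mrpl43 is red, and in ESC 33 are blue and only Mrps6 is red.

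Both subunits took part in the HSC change. In the large subunit 35 of 49 genes fell and 1 rose, with a median log2 change of -0.50. In the small subunit 21 of 26 fell and none rose past the threshold, with a median of -0.44. Among genes with a bacterial homolog 34 of 45 fell (median -0.49), and among mitochondria-specific ones 22 of 30 fell and 1 rose (median -0.47). The shares of the classes lay close together, and no difference between them was tested.

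The HSC decline took 5 genes below 50% of the Zfx-flox mean, namely Mrpl12, Mrps24, Mrpl50, Mrpl37 and Mrpl52. Mrpl12, the homolog of the bacterial stalk protein that recruits translation factors, read 1498 and 1569 with floxed Zfx against 678 and 571 in Zfx-cko cells, which is -1.28 on the log2 scale (SE 0.11, adjusted p = 4.23e-05 from limma). Mrps24, a small subunit protein with a bacterial homolog, read 1691 and 1700.4 against 706 and 758, a log2 change of -1.20 (SE 0.14, adjusted p = 0.000193 from limma). In both genes the groups were far apart, although the standard errors were above the median of 0.08 for the 76 genes. A second probe set of Mrps24, 1450865_s_at, gave -1.04.

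Mrpl50, a mitochondria-specific protein of the large subunit, read 1449 and 1555 with floxed Zfx against 636 and 692 in Zfx-cko cells (log2 change -1.16, SE 0.07, adjusted p = 8.55e-06 from limma). Its other probe set, 1451266_at, fell less, by 0.45 on the log2 scale. Mrpl52, also mitochondria-specific, read 2648 and 2722 against 1212 and 1348 (log2 change -1.06, SE 0.08, adjusted p = 2.20e-05). Mrpl37 was dim in HSC, with 119 and 124 against 39.8 and 67.9, so its log2 change of -1.03 carries a wider error (SE 0.18, adjusted p = 0.00195).

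The next genes by size stood near 50% of the Zfx-flox level. Mrpl22, which lines the nascent peptide exit tunnel, read 2342 and 2395 against 1187 and 1229.6, a log2 change of -0.96 (SE 0.06). Mrps28, a homolog of the bacterial S1 protein, read 3077 and 2699 against 1407 and 1540 (-0.96, SE 0.10). Mrpl17 read 607 and 572 against 299 and 304 (-0.94, SE 0.08). The groups of all 3 were well apart, with adjusted p-values of 1.20e-05, 0.000112 and 3.40e-05 from limma. Mrps26 read 2035 and 2329 against 1185 and 1147, a log2 change of -0.89 (SE 0.08, adjusted p = 6.92e-05). Mrpl33 varied more, with 1452 and 2074 against 995 and 857 (log2 change -0.90, SE 0.16, adjusted p = 0.00192).

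**Figure D2:**
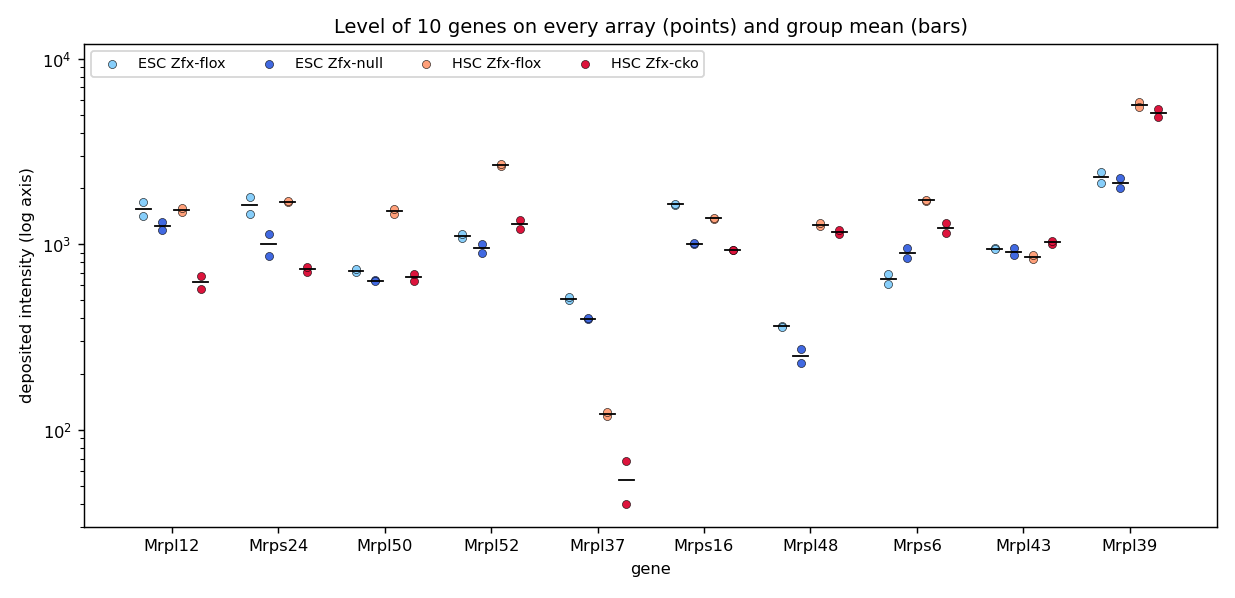
Deposited intensity (log axis) of 10 genes on each of the 8 arrays, coloured by group, with a bar at each group mean. Mrpl12, Mrps24, Mrpl50 and Mrpl52 drop from Zfx-flox to Zfx-cko in HSC, Mrps16 and Mrpl48 are lower in Zfx-null ESC, Mrps6 moves in opposite directions in the 2 cell types, and Mrpl43 is higher in HSC Zfx-cko.

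Mrpl43 alone rose in HSC. It read 829 and 875 with floxed Zfx against 1009 and 1044 in Zfx-cko cells, or 0.26 higher on the log2 scale (SE 0.07, adjusted p = 0.0152 from limma). The arrays of the groups did not overlap, but the call was lost under median centring, without a variance trend, without HSC Zfx-cko replicate 2 and without HSC Zfx-flox replicate 1 (adjusted p up to 0.270). In ESC it read 949 and 946 against 956 and 871, with overlapping groups. Mrpl44, a large subunit protein related to ribonuclease III, and Mrps33 were above the Zfx-flox arrays in HSC on both Zfx-cko arrays without passing the threshold (log2 changes of 0.12 and 0.17).

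Mrpl39, the gene with the highest mean signal, did not pass the threshold in HSC, at 5807 and 5460 with floxed Zfx against 4851 and 5327 in Zfx-cko cells (log2 change -0.15, adjusted p = 0.224). Its other probe set, 1417966_at, gave -0.19 and passed over all probe sets (adjusted p = 0.0403 from limma).

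In ESC the median decline was smaller and fewer of these genes passed the threshold. Of the 76, 33 fell past the threshold and 1 rose, where 14.9% of all 12676 genes tested fell and 15.7% rose. The median log2 change was -0.25, against -0.03 over all genes tested, and the median gene stood at 84.3% of its Zfx-flox mean, with a range of 61.4% to 137.6%. Both Zfx-null arrays lay below both Zfx-flox arrays in 56 of the 76, against 34.3% of all genes. The summed intensity was 90923 and 89950 with floxed Zfx against 77553 and 76324 in null cells. The ESC count depended on the setting. Without ESC Zfx-flox replicate 1, 20 genes fell (26.3%, against 9.54% of all genes), under median centring 15 (19.7%, against 9.96%), and without a variance trend in limma 9 (11.8%, against 8.14%), which is near the share of all genes.

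In ESC too the genes that fell came from both subunits, with 19 of 49 in the large subunit and 13 of 26 in the small one, where 1 rose. Small subunit genes made up 7 of the 9 genes with the largest ESC decrease among those past the threshold with groups that did not overlap. Mrpl38, of the large subunit, had a decrease of that size without passing (log2 change -0.52, adjusted p = 0.0524). Mrps16 read 1624 and 1651 with floxed Zfx against 997 and 1014 in null cells, which is -0.70 on the log2 scale (SE 0.06, adjusted p = 9.52e-05 from limma). Mrps24 read 1803 and 1453 against 1138 and 866, also -0.70 but with a wider error (SE 0.14, adjusted p = 0.00586). Its other probe set gave -0.81. Both genes thus stood at 61.4% and 61.6% of their Zfx-flox means.

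Mrps15 read 749.7 and 718 against 502 and 507 (log2 change -0.53, adjusted p = 0.000988), and Mrps34, a mitochondria-specific protein, 1720.0 and 1848 against 1301 and 1168 (-0.53, adjusted p = 0.00125). Mrps5, Mrps26, Mrpl14 and Mrps14 followed, with log2 changes between -0.49 and -0.45. In Mrps14 the arrays lay close, at 2330.5 and 2288 against 1728 and 1643 (SE 0.06, adjusted p = 0.000646), whereas in Mrpl14, at 497 and 587 against 331 and 439.8, they spread widely (SE 0.15, adjusted p = 0.0375). The Mrpl14 call was lost without ESC Zfx-flox replicate 1 or 2, without ESC Zfx-null replicate 1 and without any 1 of the HSC arrays, with adjusted p-values up to 0.197.

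Mrpl48 fell in ESC, from 364 and 359.7 with floxed Zfx to 273 and 229 in null cells (log2 change -0.51, SE 0.09, adjusted p = 0.00368 from limma). In HSC it read 1249.7 and 1302 against 1138 and 1200.0, a log2 change of -0.12 that did not pass the threshold (adjusted p = 0.315). Its probe set 1428302_at gave -0.62 in ESC and -0.13 in HSC. Mrpl4 and Mrpl23 likewise passed in ESC (-0.41 and -0.32) but not in HSC (-0.15 and -0.14), and the difference between the cell types did not pass for either.

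Mrps6 was the single gene with calls in opposite directions. In ESC it read 688 and 612 with floxed Zfx against 951 and 838 in null cells, a rise of 0.45 on the log2 scale (SE 0.09, adjusted p = 0.00744 from limma). In HSC it read 1719 and 1737 against 1147 and 1297, a log2 change of -0.50 (SE 0.09, adjusted p = 0.00279). Neither pair of groups overlapped. A second probe set, 1424440_at, moved the same ways, with 0.42 in ESC and -0.67 in HSC, of which only the latter passed its threshold over all probe sets. Without a variance trend the ESC call was lost (adjusted p = 0.0580).

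Across both cell types, 30 of the 76 genes fell in both, as did 6.21% of the 11175 genes tested in both. They were Mrpl3, Mrpl14, Mrpl17, Mrpl18, Mrpl19, Mrpl21, Mrpl34, Mrpl36, Mrpl41, Mrpl42, Mrpl47, Mrpl51, Mrpl54, Mrpl57, Mrpl58, Mrps5, Mrps10, Mrps12, Mrps14 to Mrps17, Mrps18a, Mrps18b, Mrps24, Mrps26, Mrps28, Mrps34, Mrps35 and Mrps36. Among them is Mrpl58, a peptidyl-tRNA hydrolase that rescues stalled ribosomes, with log2 changes of -0.29 in ESC and -0.58 in HSC. In Mrps36 the values were -0.31 and -0.85.

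Another 26 fell in HSC and did not pass in ESC, a pattern shown by 12.5% of the 11175 genes. They were Mrpl1, Mrpl2, Mrpl12, Mrpl15, Mrpl16, Mrpl22, Mrpl28, Mrpl32, Mrpl33, Mrpl35, Mrpl37, Mrpl38, Mrpl40, Mrpl45, Mrpl46, Mrpl50, Mrpl52, Mrpl55, Mrps7, Mrps9, Mrps18c, Mrps21, Mrps22, Mrps25, Mrps27 and Mrps30. With Mrps6, Mrpl43 and the 3 genes that fell in ESC alone past the threshold, 15 remain that passed in neither cell type: Mrpl9, Mrpl10, Mrpl11, Mrpl13, Mrpl20, Mrpl24, Mrpl27, Mrpl39, Mrpl44, Mrpl49, Mrps2, Mrps11, Mrps23, Mrps31 and Mrps33. On the probe sets that represent them, their log2 changes lay between -0.26 and 0.24 in ESC and between -0.49 and 0.17 in HSC. The lowest of the latter was that of Mrpl20, whose Zfx-cko arrays differed widely, at 695 and 760.2 with floxed Zfx against 369.9 and 715 in Zfx-cko cells (SE 0.24). Other probe sets of some of these genes did pass the threshold over all probe sets. In HSC these were 1423219_a_at of Mrpl49 (-0.75), 1421875_a_at of Mrps23 (-0.45), 1437839_x_at of Mrpl11 (-0.39), 1427297_at of Mrpl9 (-0.38) and 1417966_at of Mrpl39 (-0.19). In ESC they were 1460354_a_at of Mrpl13 (0.35), 1437391_x_at of Mrpl44 (0.24) and 1417966_at of Mrpl39 (-0.23).

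The difference between the effects in the 2 cell types was tested directly. For 26 of the 76 genes the HSC effect lay below the ESC effect past the threshold and for 2 above it, where 17.7% of all 11175 genes tested in both cell types lay below and 17.6% above. The median difference was -0.23 on the log2 scale. Under median centring the shares of all genes were 18.5% and 10.7%, with 25 and 0 of the 76 genes. Under quantile normalization over all arrays, 16 of the 76 lay below (21.1%) and 6 above, against 18.3% and 14.9% of all genes. Without a variance trend 9 lay below (11.8%) and 0 above, against 9.86% and 11% of all genes. In both of these settings the share below was near that of all genes.

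**Figure D3:**
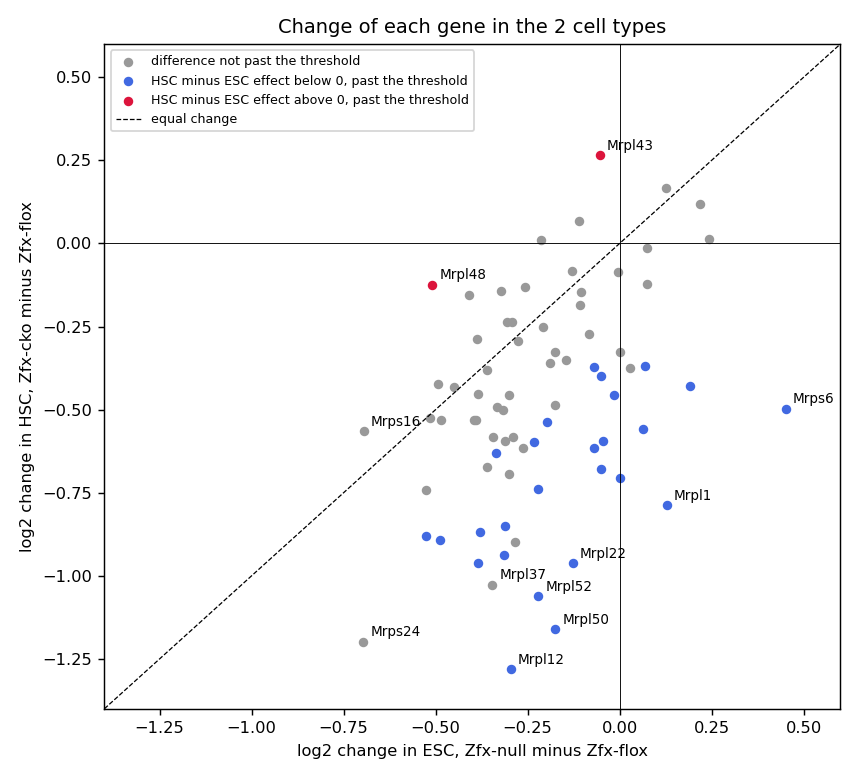
Log2 change of each of the 76 genes in ESC (horizontal) against HSC (vertical), with the dashed line where both are equal and colours for the test of the difference. Most points lie below the line: 26 genes have an HSC effect below the ESC effect past the threshold, and only Mrpl43 and Mrpl48 lie above it past the threshold.

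Mrpl50 and Mrpl12 had the largest differences, -0.99 each (SE 0.10 and 0.15, adjusted p = 0.000233 and 0.00174 from limma). In ESC Mrpl50 read 708 and 734 against 643 and 632, and Mrpl12 1691 and 1415 against 1319 and 1199, and neither passed the threshold there (log2 changes -0.17 and -0.30). Mrps6 differed by -0.95 (SE 0.13, adjusted p = 0.000982). The 2 differences above 0, 0.32 for Mrpl43 and 0.38 for Mrpl48, passed narrowly (adjusted p = 0.0360 and 0.0471) and were lost in 10 and 12 of 21 alternatives.

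Mrpl1, a protein of the ribosome's other stalk, read 310.3 and 222 against 331 and 251 in ESC, where the arrays of both groups spread widely, and 506 and 482 against 302 and 259 in HSC. Its difference was -0.92 (SE 0.25, adjusted p = 0.0211), but over the mean of its probe sets the difference was -0.17, since 1423351_at gave -0.12 in ESC and 0.12 in HSC. Without HSC Zfx-cko replicate 2 neither its difference nor its HSC change passed (adjusted p = 0.0753 and 0.0529). Mrpl52 and Mrpl22 differed by -0.84 and -0.83 (adjusted p = 0.000833 and 0.000313). Over the 76 genes the changes in the 2 cell types correlated with Pearson r = 0.38 and Spearman rho = 0.36, and over the 11175 genes tested in both r was 0.22; the genes of a cell type share its arrays and their scaling.

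Other probe sets of the same genes gave a mixed picture. Of the 80 that did not represent their gene, 66 were bright enough to be tested in HSC, where 19 fell and 3 rose past the threshold over all probe sets. Among the 33 with a Zfx-flox mean of at least 200, 17 fell and 0 rose. In ESC 69 were tested, of which 9 fell and 2 rose. Among the 36 with a Zfx-flox mean of at least 200, 7 fell and 2 rose. That limit used the Zfx-flox arrays alone and so left out probe sets that rose from below it, such as 1439210_at of Mrps9. The counts under the limit therefore cannot show a direction. Of all genes tested, 19.8% fell and 22.6% rose in HSC, and 14.9% fell and 15.7% rose in ESC. The share of the 69 that fell in ESC was thus near that of all genes. In HSC 3 genes had probe sets with opposite calls: 1444217_at of Mrpl38 gave 0.79, 1458999_at of Mrps10 1.40 and 1439210_at of Mrps9 0.85. All 3 were dim, and the last read 141 and 143 with floxed Zfx against 258 and 279 in Zfx-cko cells, while the probe set that represents Mrps9 read 2803 and 2931 against 2570.0 and 2464. Mrps23 was represented by 1459806_x_at, which did not change in HSC past the threshold (-0.01), while 1421875_a_at fell by 0.45 on the log2 scale.

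The other proteins of the mitochondrial ribosome, whose symbols fall outside the pattern, also fell. All 4 with a probe set fell in HSC and 3 of 4 fell in ESC, or 3 and 1 without a variance trend. Gadd45gip1, a large subunit protein, had log2 changes of -0.70 in ESC and -1.22 in HSC, and Ptcd3, a small subunit protein, -0.26 and -0.91. Dap3, a GTP-binding protein of the small subunit, fell in HSC (-0.76) and did not pass in ESC (-0.10). Chchd1 had -0.33 in ESC and -0.21 in HSC.

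Genes that assemble the mitochondrial ribosome changed in both directions. Of 27 tested in HSC, 10 fell and 2 rose, with a median log2 change of -0.08, which was -0.21 and -0.19 under the quantile normalizations and -0.18 under median centring. The share that fell was 37.0%, against 19.8% of all genes. Of 28 tested in ESC, 7 fell (25%, against 14.9% of all genes) and 1 rose (median -0.16), and 3 fell under median centring and without a variance trend. The GTPase Noa1 fell in HSC from a mean of 885 to 362 (log2 change -1.26, adjusted p = 1.78e-05 from limma) and stood at 0.03 in ESC. Fastkd2, which binds the mitochondrial ribosomal RNA, fell in both (-0.51 in ESC and -0.60 in HSC), and Gtpbp10, a GTPase of large subunit assembly, rose in both (0.21 and 0.30).

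Among 16 mitochondrial translation factors, 6 fell in HSC and 3 in ESC, with none higher past the threshold. In HSC Lrpprc, which stabilises mitochondrial messenger RNA, had a log2 change of -1.04, the elongation factor Gfm1 -0.82 and the elongation factor Tufm -0.79, and none of these passed in ESC (-0.14, -0.04 and -0.10). Of the mitochondrial tRNA synthetases and the glutaminyl amidotransferase genes, 6 of 18 fell and 1 rose in HSC and 2 of 19 fell in ESC. The HSC shares that fell were 37.5% of the factors and 33.3% of the synthetase list, against 19.8% of all genes. The ESC shares of these lists, 18.8% of the factors and 10.5% of the synthetase list, were near or below the 14.9% of all genes. Yars2, the tyrosyl enzyme, had the largest decrease among them in HSC, -1.06. Among genes of mitochondrial transcription and RNA processing, 12 of 19 fell and 1 rose in HSC (63.2% lower, against 19.8% of all genes) and 6 of 20 fell in ESC (30%, against 14.9%). Tfam, which packages mitochondrial DNA, and Polrmt, the mitochondrial RNA polymerase, fell in both (Tfam -0.28 in ESC and -0.32 in HSC, Polrmt -0.47 and -0.25).

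**Figure D4:**
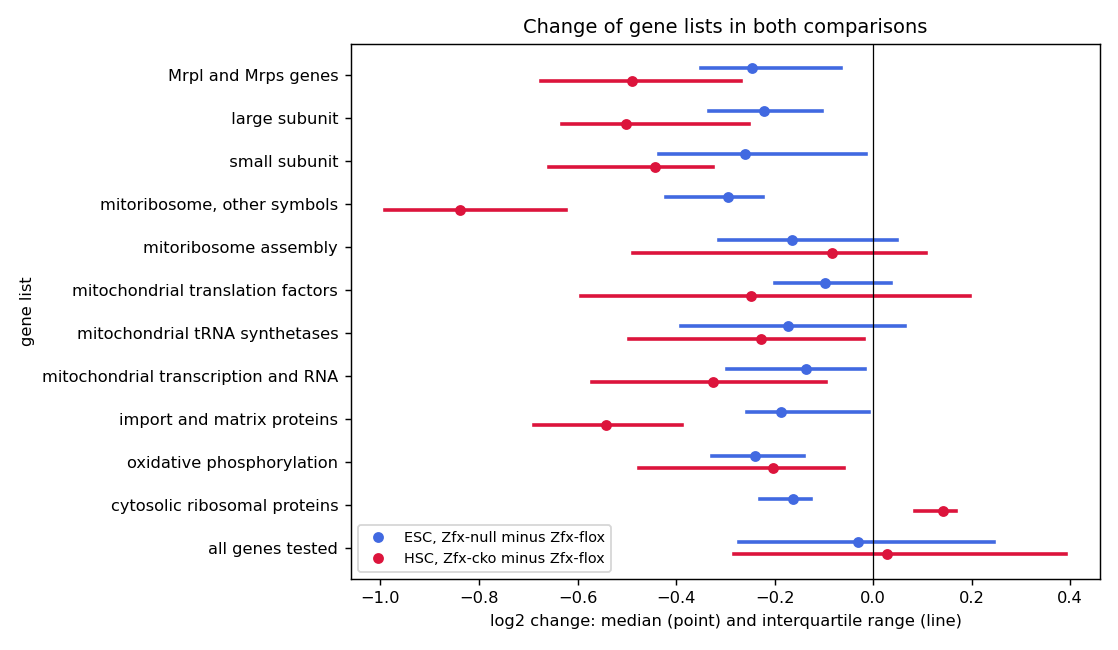
Median log2 change (point) and interquartile range (line) for the Mrpl and Mrps genes, their subunits and other gene lists, with ESC in blue and HSC in red. In HSC the Mrpl and Mrps genes have a median of -0.49, the import and matrix proteins -0.54, oxidative phosphorylation -0.20 and cytosolic ribosomal proteins 0.14.

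Import and matrix proteins were listed as a further group of mitochondrial proteins. The values are RNA levels of their genes, and mitochondrial content was not measured. In HSC 13 of 17 of their genes fell (76.5%, against 19.8% of all genes, median -0.54). In ESC 4 fell (23.5%, against 14.9%) and 1 rose. Among them the citrate synthase gene (Cs) rose in ESC (0.33) and fell in HSC (-0.61). Oxidative phosphorylation genes fell in 46 of 79 in ESC (58.2%, against 14.9% of all genes, median -0.24). In HSC 37 of 79 fell (46.8%, against 19.8%) and 2 rose (median -0.20). Their ESC count was 15 under median centring and 7 without a variance trend, settings in which 9.96% and 8.14% of all genes fell. The mitochondrial ribosomal protein genes and the oxidative phosphorylation genes thus had nearly the same median in ESC, and a lower median of the former in HSC.

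Cytosolic ribosomal protein genes encode the ribosome that translates nuclear messenger RNA. The 47 listed here had a probe set of their own and cover that ribosome only in part. They include genes with related names, Rpl3l, Rpl39l, Rps27l and Rps4l. Their median was 0.14 in HSC, where 3 of 44 fell (6.82%) and 6 rose (13.6%), against 19.8% and 22.6% of all genes. In ESC it was -0.16, where 12 of 45 fell (26.7%, against 14.9% of all genes) and none rose past the threshold. Under median centring 5 fell in ESC, and 3 fell and 1 rose in HSC (median 0.04). Without a variance trend none fell in ESC past the threshold, and 1 fell and 1 rose in HSC. Under quantile normalization the cytosolic medians came closer to 0 (0.03 in HSC and -0.06 in ESC), while those of the mitochondrial ribosomal protein genes stayed between -0.48 and -0.43 in HSC.

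Regulators known for such promoters gave different changes. Of 11 tested in HSC, 3 fell (27.3%, against 19.8% of all genes) and 2 rose (18.2%, against 22.6%), both near the shares of all genes. Of 9 tested in ESC, 4 fell (44.4%, against 14.9%) and 1 rose (11.1%, against 15.7%). Under median centring none rose in either cell type past the threshold. Nrf1 fell in ESC (log2 change -0.62, adjusted p = 0.00298) and stood at -0.04 in HSC (adjusted p = 0.771). Gabpa, the DNA-binding subunit of GABP, fell in ESC (-0.39) and had -0.08 in HSC without passing. Its partner subunits Gabpb1 and Gabpb2 rose in HSC (0.40 and 0.35), and Gabpb2 fell in ESC (-0.35). In HSC Pprc1, a coactivator related to PGC-1, fell (-0.64), as did Hcfc1 (-0.57) and Yy1 (-0.32), which had 0.09 in ESC without passing.

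Split by the promoter motifs, genes with and without a match fell. Of the 25 with an ETS site, 20 fell in HSC (median -0.53) and 14 in ESC (median -0.29), and of the 42 without, 30 and 13 fell (medians -0.44 and -0.18). Of the 8 with an NRF1 core, 5 fell in HSC (median -0.62) and 2 in ESC (median -0.12), and of the 59 without, 45 and 25 fell (medians -0.49 and -0.22). Of the 12 with a YY1 site, 10 fell in HSC and 5 in ESC (medians -0.52 and -0.28), and of the 55 without, 40 and 22 (medians -0.49 and -0.21). Of the 2 with a Zfx core, 1 fell in HSC, Mrpl40, and neither passed in ESC. Mrpl43, with its pair of ETS sites shown above, and Mrpl22, with an ETS site and an NRF1 core, moved in opposite directions in HSC. No difference between these classes was tested. Of the genes whose start faces away from that of a neighbour, the neighbours themselves fell in 6 of 22 tested cases in HSC (27.3%, against 19.8% of all genes) and rose in 3 (13.6%, against 22.6%), with a median of -0.14. These neighbours include Mrpl46 and Mrps11, which belong to the 76 genes themselves, and Mrpl46 is among those that fell. In ESC 3 of 21 neighbours fell and 0 rose, where 14.9% of all genes fell and 15.7% rose. Ptcd2, which faces away from Mrps27, fell by 0.76 on the log2 scale in HSC, and Mrps27 fell by 0.62. Twnk, beside Mrpl43, had -0.01. Of the pair within the set, Mrpl46 had -0.37 and Mrps11 -0.33 in HSC, and only the former passed (adjusted p = 0.00206 and 0.0527).

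Markers of cell state moved with both comparisons. In HSC the summed intensity of 6 Lin- Sca-1+ c-Kit+ stem and progenitor markers was 4420 and 4697 with floxed Zfx against 12992 and 13209 in Zfx-cko cells, and none of the 6 lay below the pseudocount in either group. All 6 rose past the threshold, from 0.31 for Kit to 2.44 for Flt3 on the log2 scale. The 9 markers of other blood lineages summed to 10737 to 10796 in the former and 10821 to 11566 in the latter, with Cd3e and Itgam below the pseudocount. Most of that sum was the myeloid Mpo, with means of 8218 and 10166 (adjusted p = 0.299). The erythroid factor Klf1 fell by 2.52 on the log2 scale, Fcer1a, a mast cell and basophil receptor, rose from a mean of 105 to 257 (log2 change 1.18), and the neutrophil elastase Elane had means of 404 and 297 without passing (adjusted p = 0.0879). The sum of 5 fibroblast markers was 354 and 357 with floxed Zfx against 1102 and 1041 in Zfx-cko cells. Of these, Pdgfrb rose from a mean of 195 to 826 and Thy1 from 44.2 to 114, while the collagens had means of 19.6 and 23.7 (Col1a1), 87.4 and 98.3 (Col1a2) and 9.13 and 9.14 (Col3a1). The 3 endothelial markers summed to 37.1 and 37.7 against 83.8 and 70.4, with Emcn higher in Zfx-cko (means of 14.9 and 51.4, log2 change 1.17) and with Cdh5 and Pecam1 too dim to be tested.

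In ESC 6 pluripotency markers summed to 29722 and 30769 with floxed Zfx against 18298 and 19164 in null cells. Tdgf1 (log2 change -1.19), Pou5f1 (-1.01), Nanog (-0.71) and Dppa5a (-0.60) fell past the threshold. Zfp42 (-0.49) and Sox2 (-0.26) did not pass (adjusted p = 0.153 and 0.290 from limma). The 5 fibroblast markers summed to 11239 and 11602 against 20214 and 21449, 3 endothelial markers to 592 and 511 against 407 and 380, 6 stem and progenitor markers to 1440 to 1583 against 1347 to 1396, and 9 markers of other blood lineages to at most 266 on every ESC array. The part of these shifts in the lower Mrpl and Mrps values was not tested.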

How the data were processed

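The authors deposited linear intensities, 1 per probe set and array, from GCOS 1.4, per the submitters' processing notes. How probes were summarised is not stated there. The mean of each array was 250 once the top and bottom 2% of probe sets were set aside, so the deposited scaling was kept. Gene names came from the platform annotation, in which 34945 of 45101 had 1 gene symbol, 932 several and 9160 none, besides 64 controls, which were left out. All 76 genes matched RefSeq by identifier. All value columns matched a sample's label (0 did not).

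Before taking log2, 14.2 was added to each intensity, the 25th percentile over the deposited tables, so changes of dim genes are understated. The means of the 4 groups came from 1 model of the 8 arrays in limma 3.58.1 (R 4.3.3), with eBayes and a variance trend over all probe sets (4 residual and a median of 4.24 prior degrees of freedom). The joint fit shares the spread between the cell types. P-values were adjusted per comparison over 1 probe set per gene. Arrays give no counts, so their number limits the precision.

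Named genes followed a rule: per comparison the 10 with the largest change among those past the threshold whose groups did not overlap, the 6 with the largest difference between cell types, those with the highest and lowest mean, those with opposite probe sets, and a few per gene list. Noa1, Cs, Nrf1, Twnk and other single genes outside the 76 were named with their values seen. The members and the gene lists were chosen with earlier results of these data known. Alternatives changed 1 choice at a time: pseudocount, scaling, filter, probe set per gene, fit, replicate block and each array left out. Protein sequences were not used here.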

Additional observations from a re-analysis of the deposited data

Results flagged for a closer look

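The effect of Zfx loss differed between the cell types past the threshold for 28 of the 76 genes, by a test of the HSC minus the ESC effect in the joint fit. These are log2 differences with adjusted p under 0.05, and 7 of the 28 passed in all alternatives that gave a value: Mrpl12, Mrpl16, Mrpl22, Mrpl50, Mrpl52, Mrps6 and Mrps22.

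The difference was below 0, a larger decrease in HSC or a decrease there only, for 26 genes. It was -0.99 for Mrpl50 and Mrpl12, -0.95 for Mrps6, -0.92 for Mrpl1, -0.84 for Mrpl52, -0.83 for Mrpl22 and -0.71 for Mrps22. It was -0.63 for Mrpl16, and -0.62 for Mrpl17, Mrpl32 and Mrps21. Mrps28 had -0.58, Mrps7 and Mrpl28 -0.55, Mrps36 -0.54, Mrpl40 -0.52 and Mrpl36 -0.49. Mrpl35 and Mrpl46 had -0.44, Mrps26 -0.41, Mrpl47 -0.36, Mrps15 and Mrps18c -0.35, Mrpl15 -0.34, Mrps25 -0.30 and Mrpl18 -0.29. It was above 0 for Mrpl43 (0.32) and Mrpl48 (0.38).

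HSC RNA was amplified in 2 rounds and ESC RNA in 1, and between the HSC groups Mx1-Cre was present in Zfx-cko alone. These and the cell type cannot be told apart.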

How the results depend on the processing

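The members' median log2 change kept its sign in ESC, in HSC and for the difference under each of the alternatives run. It moved by more than 0.04, the SD between the arrays of a group of their median level, under quantile normalization over all arrays (ESC -0.30, HSC -0.43, difference -0.13), under median centring (HSC -0.59, difference -0.35), with the mean of all probe sets of a gene (ESC -0.19, HSC -0.34, difference -0.16) and without HSC Zfx-flox replicate 1 (difference -0.30). Genes lower in ESC numbered 15 under median centring and 9 without a variance trend, and those with a difference below 0 numbered 16 under quantile normalization over all arrays and 9 without a trend. The count of genes higher in ESC was 2 under quantile normalization over all arrays and with a filter at the 60th percentile, and 0 without a trend. The count higher in HSC was 2 under quantile normalization within cell types, and 0 under median centring and without a trend. Differences above 0 numbered 6 under quantile normalization over all arrays, 0 under median centring, without a filter and without a trend, and 1 with p-values adjusted over all probe sets, an alternative added after seeing the data.

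With each array left out in turn, the median change ranged from -0.25 to -0.21 in ESC, -0.51 to -0.46 in HSC and -0.30 to -0.21 for the difference. The counts ranged from 20 to 32 lower and 1 to 2 higher in ESC, 45 to 60 lower and 0 to 1 higher in HSC, and 18 to 27 below and 0 to 2 above 0 for the difference. The mean of all probe sets turned the sign of Mrpl19 (0.0086), Mrpl21 (0.10), Mrpl38 (0.029), Mrps10 (0.48) and Mrps21 (0.023) in HSC, and of Mrps21 for the difference (0.072). Of the calls, 7 of 34 in ESC, 33 of 58 in HSC and 7 of 28 for the difference held in all alternatives that gave a value, at most 22. Each cell type fitted alone gives no difference between them.

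The main fit did not pair arrays by replicate number. Deviations of arrays with the same number correlated at 0.35 in ESC and 0.09 in HSC, and whether the numbers mark pairs was not tested. With the replicate block, 42 genes fell and 4 rose in ESC, 60 fell and 2 rose in HSC, and the difference was below 0 for 33 and above 0 for 2.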
